A study of Mus with 6 samples.

Results

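Interferon-stimulated genes were examined in CD4+ T cells activated with or without an antibody that neutralizes VEGF-B, the growth factor that the study asks about. The members are 45 genes that interferons are known to induce, chosen by name. The guanylate-binding proteins and immunity-related GTPases were left for a separate list, although Mx1 among the members is itself a GTPase of the dynamin type. The table holds 44 of the 45 among its 10995 protein-coding genes, and Mx2 was not analysed here. Of the 44 genes, 27 had a mean of at least 1 FPKM over all libraries and 17 lay under that limit. FPKM is a transcript level scaled to transcript length and to the reads of the library, and the unit was inferred from the tools that made the table.

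All cells were naive CD4+ T cells from the spleen of WT mice, cultured for 3 days with antibodies against CD3 at 5 μg/mL and CD28 at 2 μg/mL together with IL-2 at 100 U/mL. They differed in the added antibody, which was anti–VEGF-B or normal goat IgG at 1 μg/mL, and 3 libraries were sequenced for each. The study's methods name C57BL/6 mice but do not tie a strain or age to these libraries. The labels do not say whether replicates were separate cultures or animals, so the p-values below measure only the spread between these libraries. FPKM summed to between 260058 and 276622 per library, carry no read depth, and were compared as log2(FPKM + 1) with limma over 8816 genes. A fold change on that scale understates the change of weakly expressed genes.

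Interferons reach a cell through the receptors IFNAR (type I) and IFNGR (type II), which signal through JAK kinases. Below the type I receptor, STAT2 and IRF9 act in a complex called ISGF3, which binds promoters of antiviral genes. The products sense foreign RNA or DNA, block translation, limit nucleotides, tag proteins with ISG15 or ubiquitin, or guard membranes against viral entry. In T cells, type II interferon is also a product of activation.

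With anti–VEGF-B, no interferon-stimulated gene was called higher, and Parp14, Ly6a, Ly6e, Ifi35, Adar, Eif2ak2, Samhd1, Irf9, Trim21, Zbp1, Ddx58, Irf1 and Sp100 were lower. These 13 of 27 tested members had log2 fold changes from -1.28 to -0.30 and adjusted p from 0.00741 to 0.0470. Of all tested genes, 23.8% were called lower and 4.87% higher, and the median log2 fold change was -0.15 against -0.32 for the members. The 3 tested members Ddx58, Eif2ak2 and Ifitm3 had a mean above 1 FPKM under IgG and below it under anti–VEGF-B, so they entered the test only through their IgG level. Over all 44 members with no limit on level, 15 were called lower and 0 higher, beside 20.6% of all listed genes called lower. All 3 anti–VEGF-B libraries lay below all 3 IgG libraries for 24 of the 44 members and above them for 1, Dhx58. Over the whole table, 38.4% of genes were below and 8.87% above in this way.

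These calls, and the balance of lower and higher genes in the whole table, depended on scaling. As deposited, 2099 of all tested genes were lower and 429 higher. When the libraries were set to the same median, 807 genes (9.15%) were lower and 1365 higher, and among the members 6 were lower and 1, Dhx58, was higher. Quantile normalization gave 913 genes lower (10.4%) and 880 higher, and cyclic loess 938 lower (10.6%) and 852 higher, with 5 members lower and Dhx58 higher in both. Scaled to Actb, 1309 genes (14.8%) and 9 members were lower, and 365 genes and 0 members higher. The 5 members lower under all 4 scalings were Parp14, Ly6a, Ifi35, Samhd1 and Irf9. Leaving out anti–VEGF-B replicate 3 left 7.88% of all genes called lower and 3 members called, Parp14, Samhd1 and Ifi35, which were also lower in each of the other 5 fits without 1 library. In that fit the calls of Irf9, Ly6a, Adar, Trim21, Eif2ak2, Zbp1, Irf1, Sp100, Ddx58 and Ly6e were lost. Without anti–VEGF-B replicate 1, 15.5% of all genes and 8 members were called lower, with Ddx58, Eif2ak2, Irf1, Sp100, Trim21 and Zbp1 lost and Parp9 added. Ddx58, Eif2ak2 and Sp100 were also lost without anti–VEGF-B replicate 2, along with Ly6e, and without IgG replicate 3, along with Zbp1. Without IgG replicate 1, Ddx58, Irf1 and Ly6e were lost and Dtx3l, Isg20 and Stat2 added. When the variance of each gene was used as it stood, without moderation, none of the 13 passed in limma (adjusted p from 0.0844 to 0.207).

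**Figure D1:**
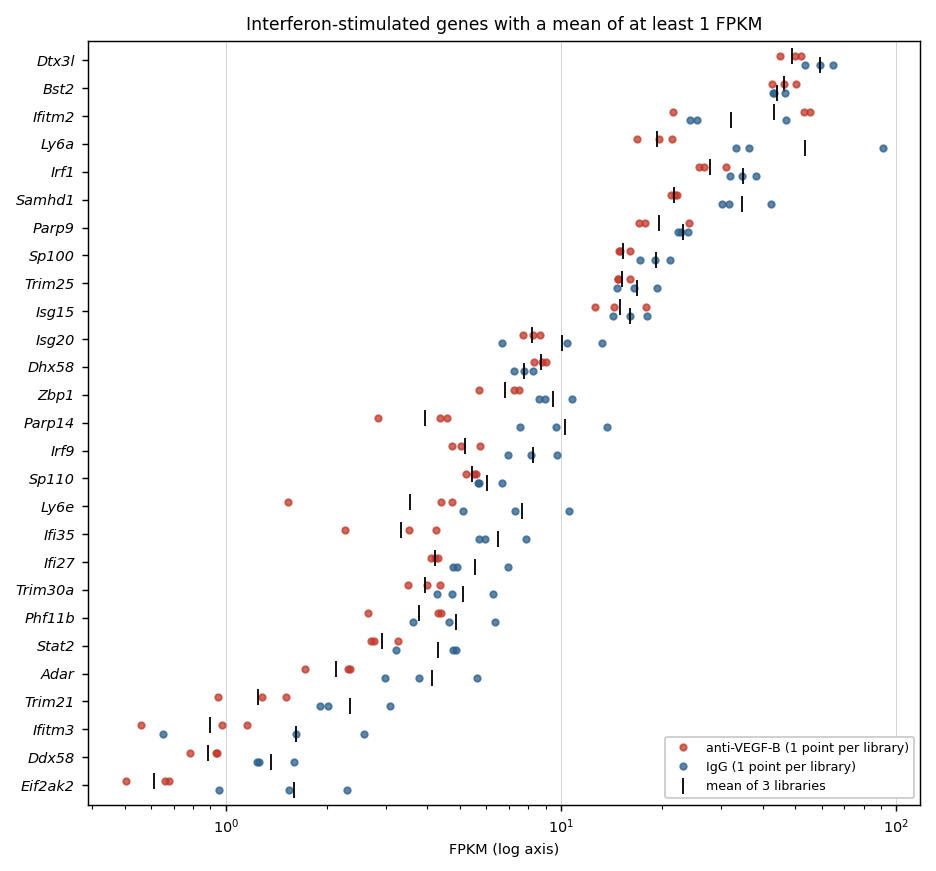
FPKM (log axis) of the 27 interferon-stimulated genes averaging at least 1 FPKM, with 1 point per library (red, anti–VEGF-B; blue, IgG) and a bar at each mean of 3 libraries. Levels run from about those of Eif2ak2 to those of Dtx3l, and for Parp14, Ly6a and Samhd1 the red points all lie left of the blue ones, while those of Isg15, Trim25 and Bst2 overlap.

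IgG replicate 2 held the highest value of 31 of the 44 members and of all 13 called members. Among tested members the share was 77.8%, and among all tested genes it was 50.9%. The median deviation of the tested members from their own means was 0.39 (log2) in this library, against 0.080 and 0.14 in IgG replicates 1 and 3 and -0.12, -0.13 and -0.21 in anti–VEGF-B replicates 1, 2 and 3. For all tested genes it was 0.15 in IgG replicate 2, although its FPKM sum was the lowest of the 6 libraries. Without it, 12.5% of all genes and 7 members were called lower, namely Parp14, Ly6a, Ifi35, Samhd1, Irf9, Adar and, newly, Ifitm3.

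Among the transcription factors of the response, Irf9 and Irf1 were lower under anti–VEGF-B and Stat2 did not pass. Irf9, the DNA-binding part of ISGF3 (chromosome 14 of GRCm38, 55603571 to 55610030), was at 5.05, 5.72 and 4.74 FPKM under anti–VEGF-B, compared to 6.96, 9.72 and 8.13 under IgG. The groups did not overlap (log2 fold change -0.58, standard error 0.125, adjusted p = 0.0130). It shares 123 bases with Rnf31 on the same strand, whose log2 fold change was -0.12. Stat2 (chromosome 10, 128270559 to 128292849) was at 2.78, 3.27 and 2.71 FPKM against 3.23, 4.87 and 4.77. Only IgG replicate 1 reached into the anti–VEGF-B range, and the log2 fold change was -0.42 (adjusted p = 0.0521, and 0.0141 without IgG replicate 1 over alternatives from 0.0141 to 0.269).

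Irf1, a factor induced by both interferon types and by T cell activation (chromosome 11, 53770014 to 53778374), was the most abundant of the 4 factors, with 25.8, 31.0 and 26.8 FPKM against 34.7, 38.3 and 31.9. The highest anti–VEGF-B value lay just under the lowest IgG value. Its log2 fold change of -0.32 (adjusted p = 0.0383) came to -0.17 once the median of all genes was taken off, and the call was lost under each of the 4 scalings. Irf7, the factor that amplifies type I interferon production, was hardly expressed, at 0.212, 0.186 and 0.272 FPKM against 0.207, 0.325 and 0.178, and its groups overlapped.

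Of the receptors that sense viral RNA in the cytosol, Ddx58 was called lower, while Ifih1 and Dhx58 did not pass. Ddx58 (chromosome 4, 40203773 to 40239828), which encodes RIG-I, was at 0.939, 0.783 and 0.936 FPKM under anti–VEGF-B and 1.26, 1.60 and 1.24 under IgG. All anti–VEGF-B values were lower (log2 fold change -0.32, adjusted p = 0.0460, with 0.0441 to 0.487 over the alternatives), and the call was kept in only 3 of 15 alternatives. Ifih1 (chromosome 2, 62595798 to 62646255), which encodes MDA5, was at 0.617, 0.625 and 0.527 FPKM against 0.848, 1.08 and 0.825, also without overlap. It was tested only with no limit on level (log2 fold change -0.27, adjusted p = 0.0542) and did not pass.

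Dhx58 (chromosome 11, 100694884 to 100704271), which encodes LGP2, the family member without a signaling domain, was at 9.02, 8.80 and 8.30 FPKM against 7.25, 8.29 and 7.76. All anti–VEGF-B values lay above the IgG values, if barely (log2 fold change 0.15, 95% interval -0.052 to 0.35, adjusted p = 0.223). Zbp1 (chromosome 2, 173206612 to 173218923), a sensor of Z-form nucleic acid that can trigger necroptosis, was at 5.72, 7.51 and 7.25 FPKM against 8.60, 10.8 and 8.94. Its log2 fold change was -0.42 (adjusted p = 0.0337), with no overlap, and it was kept in 7 of 16 alternatives.

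Of the tested genes acting on RNA or nucleotides, 3 of 4 were lower, beside 23.8% of all tested genes. Eif2ak2 among them entered the test only through its IgG level. With no limit on level, 3 of 8 genes in this role were lower, beside 20.6% of all listed genes. Samhd1 (chromosome 2, 157097533 to 157135265), a hydrolase that depletes deoxynucleotides, was at 21.3, 22.2 and 21.8 FPKM under anti–VEGF-B against 30.2, 42.2 and 31.8 under IgG. The anti–VEGF-B libraries hardly differed from each other, and the IgG libraries were all higher (log2 fold change -0.64, standard error 0.118, adjusted p = 0.00875). It passed in 15 of 16 alternatives. Adar (chromosome 3, 89715022 to 89753446), which edits adenosines in double-stranded RNA, was at 2.31, 2.35 and 1.73 FPKM against 2.98, 5.63 and 3.77. The IgG values spread widely above the anti–VEGF-B values (log2 fold change -0.69, standard error 0.180, adjusted p = 0.0237).

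Eif2ak2 (chromosome 17, 78852564 to 78882573), the gene of the kinase PKR that stops translation on double-stranded RNA, was at 0.679, 0.503 and 0.657 FPKM against 0.954, 2.30 and 1.55. Its mean was 2.61 times higher under IgG (log2 fold change -0.66, adjusted p = 0.0237), and IgG replicate 1 lay nearest to the anti–VEGF-B range. The call was kept in 6 of 15 alternatives. Isg20, an RNA exonuclease gene, had a log2 fold change of -0.23 (95% interval -0.66 to 0.21, adjusted p = 0.389), with overlapping groups.

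In the group of ISG15, ubiquitin and ADP-ribosylation genes, 2 of 7 tested members were lower and 5 did not pass. That share, 28.6%, was near the 23.8% of all tested genes called lower. The largest difference was that of Parp14 (chromosome 16, 35832874 to 35871544), which encodes an ADP-ribosyltransferase. It was at 4.36, 4.57 and 2.86 FPKM under anti–VEGF-B and 7.56, 13.7 and 9.68 under IgG, 2.63 times higher in the mean. The groups lay well apart (log2 fold change -1.18, standard error 0.204, adjusted p = 0.00741), and the call held in 15 of 16 alternatives.

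Parp14 lies beside Dtx3l and Parp9, a pair of genes whose products form a complex of ubiquitin ligase and ADP-ribosyltransferase and whose 5′ ends overlap by 682 bases on opposite strands. Dtx3l (chromosome 16, 35926511 to 35939151) was the most abundant member, at 52.2, 49.8 and 44.9 FPKM against 53.6, 64.9 and 59.3. The groups did not overlap, yet the log2 fold change of -0.27 did not pass (adjusted p = 0.0548, and 0.0324 without IgG replicate 1, the lowest of alternatives up to 0.554). Parp9 had -0.24 (95% interval -0.51 to 0.039, adjusted p = 0.168), with overlapping groups. Parp14 lies 54.97 kb from Dtx3l, with no other gene of the table between them. The log2 ratio of Parp14 to Dtx3l was -3.67 ± 0.275 under anti–VEGF-B and -2.56 ± 0.294 under IgG (SD for 3 libraries each). That of Parp14 to Parp9 was -2.34 ± 0.333 and -1.21 ± 0.464, and neither ratio overlapped (two-sided exact permutation test, p = 0.1 each, the smallest that 3 against 3 allow). They are 2 of 4 ratios picked after the values were seen.

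Trim21 (chromosome 7, 102557921 to 102565486), an antibody receptor in the cytosol and ubiquitin ligase, was at 1.28, 1.51 and 0.946 FPKM against 2.02, 3.10 and 1.91. Every anti–VEGF-B value was lower (log2 fold change -0.56, adjusted p = 0.0270, kept in 8 of 15 alternatives). Isg15 itself, the ubiquitin-like protein, stood at 15.0 ± 2.70 and 16.1 ± 1.89 FPKM (SD, n = 3 each) with overlapping groups and a log2 fold change of -0.10 (95% interval -0.40 to 0.19, adjusted p = 0.570), above 0 after quantile normalization, cyclic loess or median centring. Trim25, the ligase that activates RIG-I, had -0.13 (95% interval -0.37 to 0.10), above 0 after median centring, and Trim30a had -0.29 (adjusted p = 0.129). Trim30a and Trim30d lie 4.82 kb apart and are similar enough that reads could have been divided between them.

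**Figure D2:**
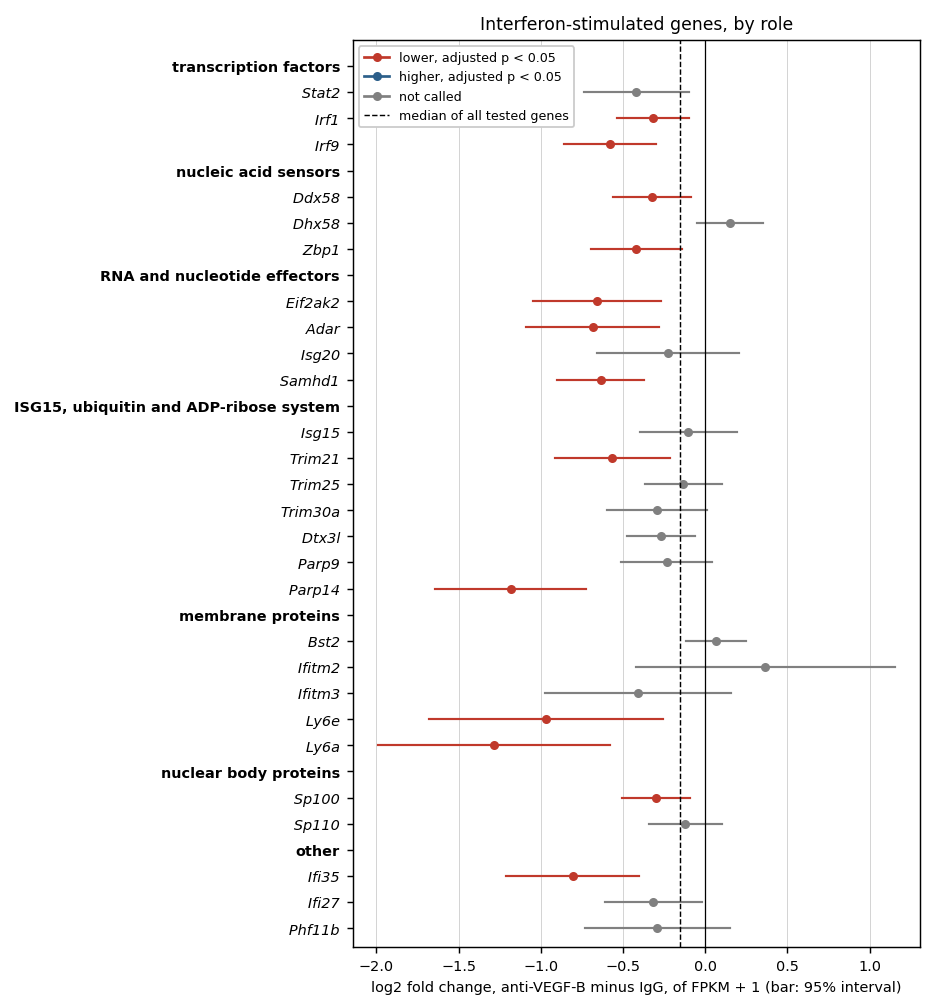
Log2 fold change of FPKM + 1 (anti–VEGF-B minus IgG) of the 27 tested interferon-stimulated genes, grouped by role, with 95% intervals from limma. Red marks the 13 genes called lower, grey the 14 not called, and the dashed line the median of all tested genes at -0.15. Parp14, Ly6a and Ly6e lie farthest left and Ifitm2 has the widest interval.

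Among the membrane proteins, Ly6a and Ly6e were lower, while the antiviral membrane genes Bst2, Ifitm2 and Ifitm3 did not pass. Ly6a (chromosome 15, 74994877 to 74998031) encodes Sca-1, a GPI-anchored antigen that activated T cells carry. It was at 21.5, 19.6 and 16.8 FPKM under anti–VEGF-B and 33.3, 91.1 and 36.5 under IgG. IgG replicate 2 was far above the rest, but the other IgG values also exceeded all anti–VEGF-B values (log2 fold change -1.28, standard error 0.313, adjusted p = 0.0186). Without IgG replicate 2 the log2 fold change was -0.83 and the call was kept. Without anti–VEGF-B replicate 3 the call was lost, and alternatives gave an adjusted p between 0.00829 and 0.139. Ly6e (chromosome 15, 74955051 to 74959905), a GPI-anchored protein of the same family that lies 34.97 kb away, was at 4.72, 1.54 and 4.40 FPKM against 7.31, 10.6 and 5.12. Anti–VEGF-B replicate 2 and IgG replicate 2 lay at the ends, and IgG replicate 3 was nearest to the anti–VEGF-B values. Without anti–VEGF-B replicate 2 the log2 fold change was -0.59. With all libraries, the value of -0.97 (adjusted p = 0.0470, with 0.0350 to 0.207 over the alternatives) was kept in only 4 of 16 alternatives.

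Bst2 (chromosome 8, 71534255 to 71537456), which encodes tetherin, a protein that holds budding virions on the cell, was at 50.4, 42.7 and 46.4 FPKM against 46.7, 43.0 and 43.2. The groups overlapped, and the 95% interval of its log2 fold change ran from -0.12 to 0.25 (adjusted p = 0.561). Ifitm2 (chromosome 7, 140954837 to 140955987), of a family that blocks fusion of viruses with the cell, was high in some libraries and low in others of both groups. It was at 55.2, 21.6 and 53.2 FPKM under anti–VEGF-B, compared to 24.4, 25.5 and 46.8 under IgG. Of its 1151 bases, 1101 are shared with Gm45717 on the same strand, listed at 0, 30.5 and 0.321 FPKM against 37.5, 35.0 and 0.485, thus high where Ifitm2 was low. The summed FPKM of both genes were 55.2, 52.1 and 53.5 against 61.9, 60.6 and 47.3 (two-sided exact permutation test, p = 0.5), so the level of Ifitm2 alone is uncertain. Ifitm3 had 0.898 ± 0.308 FPKM under anti–VEGF-B and 1.62 ± 0.972 under IgG (SD for 3 libraries each), highest in IgG replicate 3, and did not pass (log2 fold change -0.41, adjusted p = 0.236).

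Of the remaining tested members, Ifi35 and Sp100 were lower. Ifi35 (chromosome 11, 101448407 to 101458698), a partner of NMI in cytokine signaling, was at 3.52, 4.23 and 2.27 FPKM under anti–VEGF-B and 5.69, 7.88 and 5.95 under IgG. There was no overlap (log2 fold change -0.81, standard error 0.179, adjusted p = 0.0139), and it passed in 14 of 15 alternatives. Sp100 (chromosome 1, 85649988 to 85709998), a component of PML nuclear bodies, was at 14.9, 16.1 and 15.1 FPKM against 17.3, 21.2 and 19.1. Here too the groups were apart, with a small log2 fold change of -0.30 (adjusted p = 0.0386) that came to -0.15 once the median of all genes was taken off and was lost under each scaling. Its relative Sp110 had -0.12 (adjusted p = 0.365), above 0 after quantile normalization, cyclic loess or median centring. Ifi27 (-0.32, adjusted p = 0.0986) and Phf11b (-0.29, adjusted p = 0.276) did not pass.

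The 17 members under the limit include Rsad2, Mx1 and the IFIT genes, which are widely used as readouts of type I interferon. In 13 of the 44 members no library reached 1 FPKM. Rsad2 (viperin) averaged 0.180 FPKM under anti–VEGF-B and 0.299 under IgG, Mx1 0.109 and 0.329, Oasl2 0.0335 and 0.0465, Xaf1 0.0976 and 0.225, Oasl1 0.610 and 0.730, and Herc6, the murine ISG15 ligase, 0.342 and 0.443. Cmpk2, the gene next to Rsad2, was listed at 0.051, 0 and 0 FPKM under anti–VEGF-B and at 0.039, 0.062 and 0.053 under IgG. Rtp4 was listed at 0, 0 and 0.046 against 0.038, 0.033 and 0.

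The IFIT genes lie together on chromosome 19 and all averaged under the limit, and whether they differ from each other was not tested. Ifit1 (34640871 to 34650009) was at 1.04 ± 0.0931 FPKM under anti–VEGF-B and 0.822 ± 0.253 under IgG (SD for 3 libraries each), with overlap. Ifit2 (34550694 to 34576419) was at 0.280 ± 0.0580 and 0.504 ± 0.0244 FPKM without overlap, and passed in the fit with no limit on level (log2 fold change -0.23, adjusted p = 0.0459). Ifit3 was listed at 0.257, 0.108 and 0 FPKM against 0.184, 0 and 0.139. Mx1 (log2 fold change -0.26, adjusted p = 0.0426) and Trim30d (-0.45, adjusted p = 0.0486) were the other members that passed only in that fit, in which Ly6e no longer did. The giant ubiquitin ligase gene Rnf213 (-0.29, adjusted p = 0.0585) and Tor3a (-0.41, adjusted p = 0.0519) were lower in every anti–VEGF-B library without passing, and Ifitm1 overlapped between groups.

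**Figure D3:**
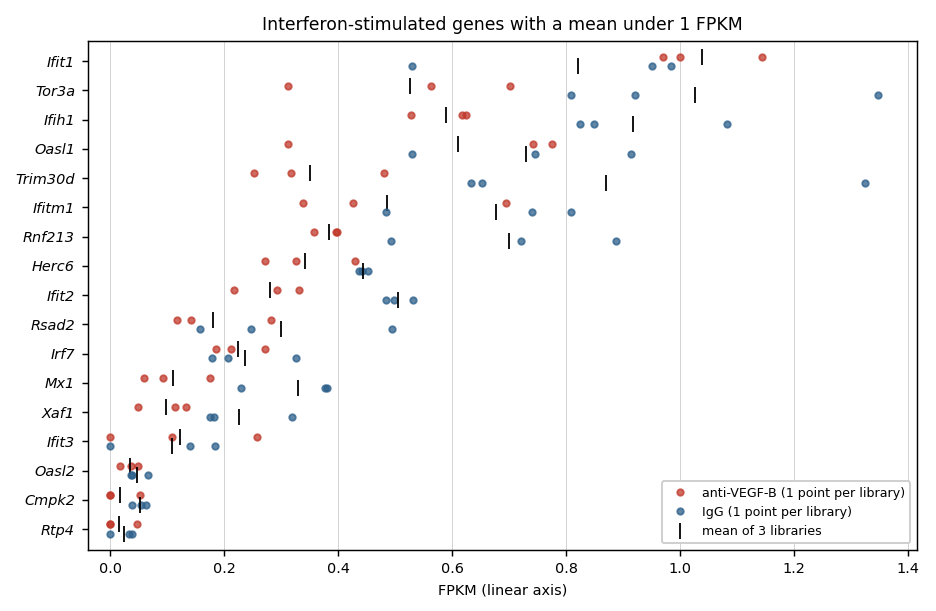
FPKM (linear axis) of the 17 interferon-stimulated genes with a mean under 1 FPKM, with 1 point per library (red, anti–VEGF-B; blue, IgG) and a bar at each mean of 3 libraries. The groups are apart for Ifih1, Ifit2, Mx1, Rnf213 and Trim30d, and overlap for Ifit1, Ifit3, Oasl1 and Rtp4.

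Around the members, 45 genes of the interferon pathway were listed by role, of which 34 are in the table and 31 were tested. Of these, 13 (41.9%) were lower and 3 higher under anti–VEGF-B, with a median log2 fold change of -0.21. Of all tested genes, 23.8% were lower and 4.87% higher, with a median of -0.15. None of the 16 called pathway genes changed sign under any of the 4 scalings. The balance did change, to 6 lower and 7 higher after median centring, beside 807 lower and 1365 higher of all tested genes. It was 7 lower and 5 higher by either the quantile or the cyclic loess method, beside 913 and 880, and 938 and 852, of all genes. Scaling to Actb gave 9 lower and 3 higher, beside 1309 and 365 of all genes. Of the 13, Il10rb, Ptpn1, Tbk1 and Tmem173 were not called under any of these scalings. The number called was 4 without anti–VEGF-B replicate 3, and 10 without any 1 of anti–VEGF-B replicates 1 and 2 and IgG replicate 2. The only ligand analysed was Ifng, the type II interferon that T cells make. It was at 1.01, 1.14 and 0.890 FPKM under anti–VEGF-B and 1.99, 0.880 and 1.14 under IgG, so that IgG replicate 1 stood alone and the groups overlapped (log2 fold change -0.19, 95% interval -0.56 to 0.18, adjusted p = 0.404).

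Receptor chains were each tested between the groups but not against each other. Ifnar1 of the type I receptor was at 3.88 ± 0.166 FPKM against 5.97 ± 1.34 (SD, n = 3 each, log2 fold change -0.50, adjusted p = 0.0259), with no overlap, and was called in 8 of 15 alternatives and under 1 of the 4 scalings. Its partner Ifnar2 stood at 7.72 ± 0.921 and 7.94 ± 0.265 FPKM (-0.041, 95% interval -0.27 to 0.19). Of the type II receptor, Ifngr1 had 0.022 (95% interval -0.20 to 0.24) and Ifngr2 0.081 (-0.13 to 0.29), and neither passed. Ifngr2 was called higher under 1 of the 4 scalings. Il10rb, a chain shared by the receptors of IL-10 and type III interferon, was lower (-0.39, adjusted p = 0.0486, kept in 3 of 15 alternatives).

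Among the kinases, Tyk2, a kinase on IFNAR1, was lower (-0.60, adjusted p = 0.0259, called in 8 of 15 alternatives and under 1 of the 4 scalings). Jak1 (0.14, 95% interval -0.020 to 0.30) and Jak2 (-0.063, 95% interval -0.22 to 0.093) did not pass. Jak1 was called higher under 1 of the 4 scalings.

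Inhibitors of the pathway went both ways. Socs1, which blocks JAK kinases, averaged 28.8 ± 6.46 FPKM in the IgG group and was lower, 14.2 ± 2.39, after anti–VEGF-B (SD for 3 libraries each), with a log2 fold change of -0.96 (adjusted p = 0.00714). Socs3 (-0.55, adjusted p = 0.0152) and the phosphatase genes Ptpn11 (-0.59), Ptpn6 (-0.40) and Ptpn1 (-0.40) were also lower (adjusted p from limma 0.0141, 0.0136 and 0.0365). Ptpn2, a phosphatase that acts on JAK1, rose from 70.8 ± 8.19 to 89.2 ± 3.62 FPKM (0.34, adjusted p = 0.0273), and Irf2, which competes with IRF1 for its sites, from 17.2 ± 0.307 to 21.7 ± 1.43 (0.32, adjusted p = 0.0198). Usp18, which removes ISG15 and blocks IFNAR2, had 0.14 (95% interval -0.12 to 0.39, adjusted p = 0.366) and was called higher under 3 of the 4 scalings.

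Of 9 tested genes that lead from sensors to interferon production, 4 were lower, 1 was higher and 4 did not pass. Among all tested genes, 23.8% were called lower and 4.87% higher. Myd88 (-0.66, adjusted p = 0.00634), Ikbke (-0.61, adjusted p = 0.0147), Tbk1 (-0.34, adjusted p = 0.0255) and Tmem173, which encodes STING (-0.27, adjusted p = 0.0392), were lower. Tbk1 and Tmem173 were called under 0 of the 4 scalings, and Myd88 and Ikbke under all 4. Mavs (0.085, adjusted p = 0.552) did not pass and was called higher under 3 of the 4 scalings. Traf3 (0.21), Traf6 (-0.15) and Irak1 (-0.32) did not pass either. Irf3, a factor that the kinases TBK1 and IKKε activate, was lower too (-0.55, adjusted p = 0.00859), from 4.36 ± 0.376 to 2.65 ± 0.169 FPKM. Ticam1, the adaptor TRIF, rose from 28.1 ± 0.684 to 36.7 ± 1.64 FPKM (0.37, adjusted p = 0.00950), with all anti–VEGF-B values above all IgG values.

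**Figure D4:**
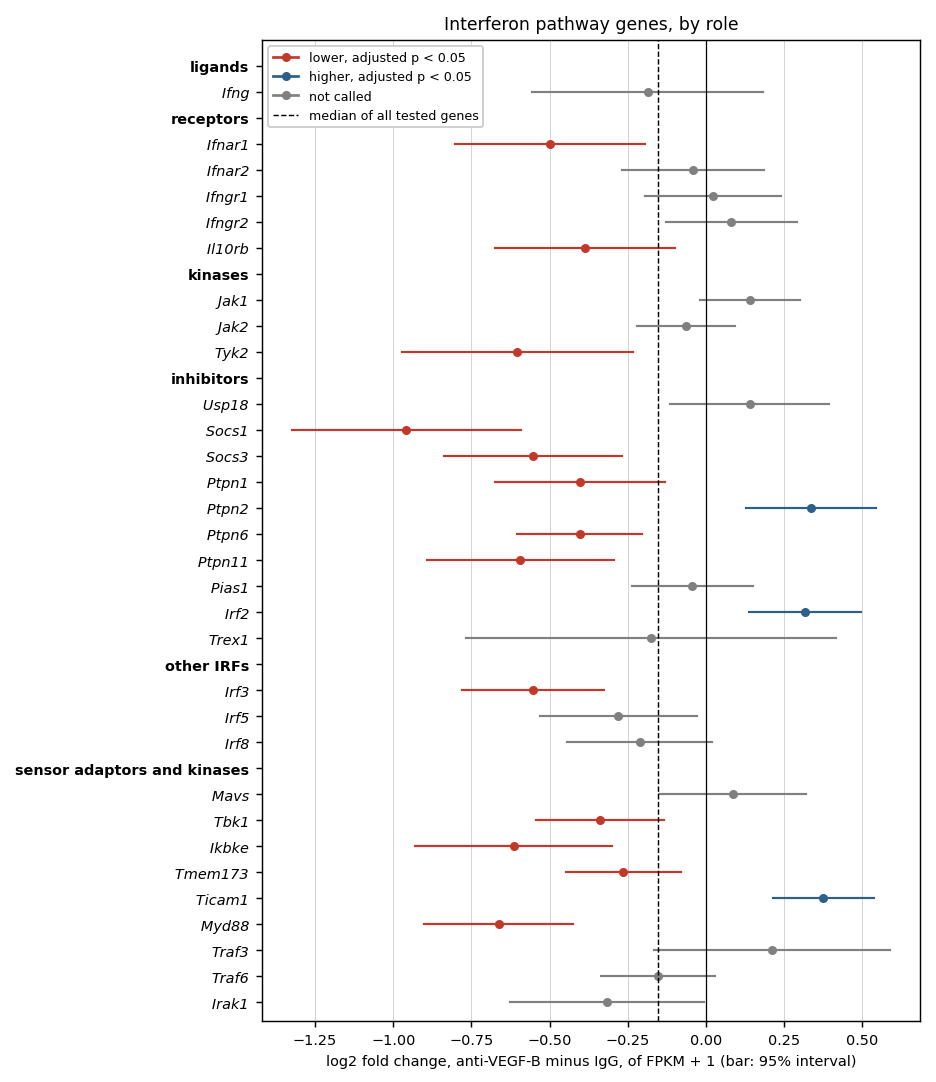
Log2 fold change of FPKM + 1 (anti–VEGF-B minus IgG) of the 31 tested interferon pathway genes, grouped by role, with 95% intervals from limma. Red marks 13 genes called lower, blue the 3 called higher (Ptpn2, Irf2 and Ticam1), grey those not called, and the dashed line the median of all tested genes at -0.15.

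Other interferon-induced families gave these values in the same fit. Of 17 tested guanylate-binding and immunity-related GTPase genes, 13 were lower and 0 higher, with a median log2 fold change of -0.68. Of 20 genes of antigen presentation on MHC class I, 8 were lower and 0 higher, with a median of -0.27. Of all tested genes, 23.8% were lower, with a median of -0.15. The limma adjusted p of H2-D1, 1 of the 8, reached 0.586 over the alternatives, and counts of these families under other scalings are not given here. Whether these families differ from the members was not tested.

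The cells carried markers of CD4+ T cells, with Cd4 between 64.0 and 74.6 FPKM in every library. Of 7 such markers, 2 were lower under anti–VEGF-B, Cd3e (log2 fold change -0.51, adjusted p = 0.0197) and Il2ra (-0.97, adjusted p = 0.00664). That share, 28.6%, was near the 23.8% of all tested genes called lower. The 4 monocyte and macrophage markers analysed, of 6 listed, summed to 4.69 to 5.85 FPKM under anti–VEGF-B and to 4.87, 4.98 and 20.6 in IgG replicates 1, 2 and 3. Without IgG replicate 3, 17.3% of all genes and 9 members were called lower. Parp14, Ly6a, Ifi35, Samhd1, Irf9, Adar, Irf1, Ly6e and Trim21 were kept, and Ddx58, Eif2ak2, Sp100 and Zbp1 were lost. Summed CD8 T cell markers (2 of 2 analysed) were 3.32 to 4.69 and 2.29 to 4.21 FPKM, those of B cells (1 of 5) 0.798 to 1.33 and 0.665 to 1.34, of NK cells (2 of 4) 0.437 to 0.486 and 0.121 to 0.645, and the dendritic cell marker Batf3 (1 of 6), which activated T cells also make, 2.95 to 3.21 and 3.39 to 4.58. Among these, Cd8a was at 0 in anti–VEGF-B replicate 1 and Eomes in anti–VEGF-B replicate 3, and the part of other cells in the results was not tested. In bulk RNA, fewer cells of a type and less RNA per cell cannot be told apart.

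**Figure D5:**
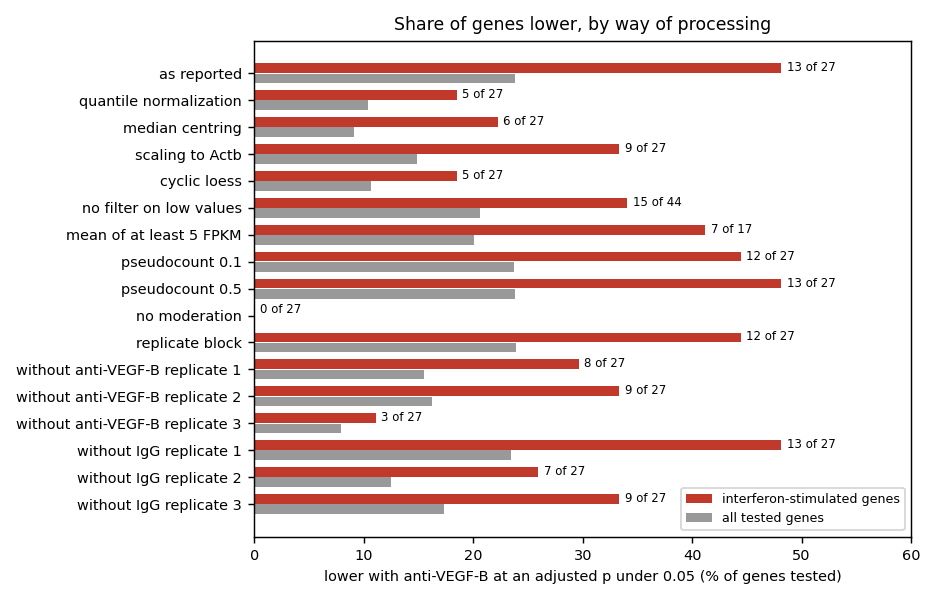
Percent of genes lower under anti–VEGF-B at an adjusted p under 0.05 for each way of processing, for interferon-stimulated genes (red, with the number called of those tested) and all tested genes (grey). The members' share runs from 0 of 27 with no moderation to 13 of 27, and apart from that fit the red share lies above the grey one in each setting.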

How the data were processed

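The authors aligned reads of stranded libraries to GRCm38 with hisat2, used StringTie and Ballgown for transcript levels, and deposited 1 table of values per gene and library. The deposited values were taken as FPKM from these tools, since neither the labels nor the methods name the unit. The table is called raw data, but the values are not whole numbers, so no count model was run. No normalization between libraries is stated. All 6 columns were matched to samples by title, and 0 columns of values were left over. When libraries were compared pairwise over genes below 0.3 FPKM, no ratio was common to more than 1.37% of them, so whole reads were not recovered and depth is unknown.

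For genes averaging 1 FPKM or more, log2(FPKM + 1) was modeled with limma 3.58.1 in R 4.3.3 (empirical Bayes with trend, no covariate), with Benjamini-Hochberg adjustment over all tested genes and calls at an adjusted p under 0.05. Levels were compared by two-sided exact permutation tests. Values in every library are given for called members, the 5 most abundant, the transcription factors, the sensors and members listed at 0. Alternatives changed scaling (quantile, median, Actb, cyclic loess), filter (none, or a mean of 5 FPKM or more), pseudocount (0.1, 0.5), moderation, threshold, replicate block and libraries. The members, the gene lists and the tests were chosen with earlier results of these data known. No sequences were used here. A result of the interferon pathway list is not reported here.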

Additional observations from a re-analysis of the deposited data

How the results depend on the processing

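All 13 called members kept their direction under the 4 scalings. The other alternatives could not have turned it. Filter, moderation and replicate block leave a fold change as it is, and the groups of all 13 did not overlap, whichever library or pseudocount was used. The calls did not all hold. Of 27 tested members, 5 were called lower and Dhx58 higher after quantile normalization or cyclic loess, beside 10.4% and 10.6% of all genes lower. After median centring 6 were lower and Dhx58 higher, beside 9.15% of all genes lower, and with no moderation 0 members were called. The fits without 1 library gave 3 to 13 members lower, beside 7.88% to 23.5% of all genes. Over genes averaging 5 FPKM or more, 7 of 17 members were called lower, beside 20.1% of all genes. The calls of Adar, Ddx58, Eif2ak2, Ifi35 and Trim21 were lost there because their means lie under that limit, and Ly6e was tested and did not pass. The median of the members was -0.19 after quantile normalization and -0.12 after median centring, where the median of all genes was 0.0077 and 0.049, so that the members lay -0.20 and -0.17 from it, against -0.17 as deposited. Of all tested genes, 1674 were called when scaled to Actb, 1331 at a mean of 5 FPKM or more, 12 with no moderation, 859 to 2467 without 1 library, and 1121 at limits of 0.05 for the unadjusted p and 0.5 for the size of the log2 fold change. Pathway genes called in either direction numbered 10 at a mean of 5 FPKM or more, 0 with no moderation, 4 to 15 without 1 library and 7 at those unadjusted limits. The sign turned for Isg15 (0.025, 0.098 and 0.0022 by the quantile, median and cyclic loess methods, and from -0.23 to 0.0053 without 1 library), Trim25 (0.068 after median centring) and Sp110 (0.079, 0.080 and 0.072 by the same methods). The causes were not tested. Same-numbered libraries deviated together with correlations of -0.030, 0.11 and 0.089, so the numbers were not taken as pairs. With the replicate block 12 members were called, with Stat2 added and Ddx58 and Ly6e lost, and 2578 of all genes. No depth is known for any library.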

Other observations

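Of the 4 monocyte and macrophage markers analysed, Lyz2, Csf1r and Cd14 were high in 1 library and Fcgr3 was not. Fcgr3 was at 0.771 FPKM in IgG replicate 3 and highest, 0.958, in anti–VEGF-B replicate 1. Lyz2 was at 16.4 FPKM in IgG replicate 3 and at 3.26 to 4.19 in the other libraries, Csf1r at 1.57 against 0.288 to 0.380, and Cd14 at 1.80 against 0.397 to 0.777. Ifitm3 was at 2.59 FPKM in the same library, the highest of its 6 values. Ifitm2 was at 46.8 there, below its 55.2 and 53.2 in anti–VEGF-B replicates 1 and 3. The summed FPKM of Ifitm2 and Gm45717 were lowest in IgG replicate 3, at 47.3. These libraries were chosen for mention after their values were seen.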
